A study of Mus musculus with 2 samples.

Results

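Antisense transcripts are RNAs made from the strand opposite a gene. The transcripts described here are those with the file's gene type antisense and a mean of at least 2 FPKM (fragments counted per kilobase of transcript and normalised to library size) over the 2 libraries of the study, leaving out Gas5 and symbols starting with Snhg, which host small nucleolar RNAs. The rule returned 180 transcripts of the 2137 antisense rows, in files of 46511 gene rows, and left out 1 row by its symbol. Members were chosen by their mean FPKM over both libraries, so their levels are a description and support nothing.

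The study asked how loss of neuritin alters effector regulatory T cells (effector Treg cells), an activated subset of the Foxp3-expressing CD4 T cells that restrain immune responses. Neuritin, the product of Nrn1, is a lipid-anchored surface protein known from neurons. Poly(A) RNA of sorted cells was sequenced in 1 library per genotype, Nrn1-/- and Nrn1+/-. Both came from C57BL/6 mice carrying Foxp3DTRgfp, so both groups carry the Foxp3 reporter allele, and the sort gate was CD4+CD25+Cd62LlowCD44highFoxp3gfp+. The title of the Nrn1+/- library calls it WT, but its genotype label gives 1 intact and 1 mutant allele, so the cells set against Nrn1-/- here are heterozygous. The labels used here give neither the age of the mice nor the number of mice behind each library. With 1 library per genotype no difference has a replicate check, no test was possible, and every value is a comparison of these libraries.

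An antisense transcript can overlap the exons of its sense gene, lie inside an intron of it, or start beside the sense gene's own start and run the other way, as transcripts from a bidirectional promoter do. Some are known to silence a neighbour or an imprinted domain in cis, Airn at the Igf2r locus being the textbook case, and many have no known function. The libraries were made with a NEBNext Ultra kit that does not mark strand, so fragments from exons that a sense and an antisense gene share cannot be told apart by strand. Where a member shares exon bases with a partner, its FPKM may therefore hold fragments of the partner, and the reverse, and how far this contributes to each value was not tested.

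Nrn1 had 4.62 FPKM in Nrn1-/- cells, against 66.5 FPKM in Nrn1+/- cells, a 14.4-fold lower value. The Treg markers Foxp3 (195 FPKM in Nrn1-/- cells, 257 FPKM in Nrn1+/- cells), Il2ra (564 FPKM in Nrn1-/- and 601 FPKM in Nrn1+/- cells) and Ctla4 (389 FPKM in Nrn1-/- and 491 FPKM in Nrn1+/- cells) were high in both libraries. The 17 markers of B cells, CD8 T cells, NK cells, myeloid cells, dendritic cells and red cells summed to 13.2 FPKM in Nrn1-/- cells and 13.7 FPKM in Nrn1+/- cells, with 3 of them listed at 0 in Nrn1-/- cells and 2 in Nrn1+/- cells. Of those, Cd79b was the highest, at 5.14 FPKM in Nrn1-/- cells and 4.85 FPKM in Nrn1+/- cells. The depth implied by the low values was 79.7 fragments in the Nrn1-/- library and 104 fragments in the Nrn1+/- library for a transcript of 1 kilobase effective length at 2 FPKM. In bulk RNA of this kind, fewer cells that make a transcript and less of it per cell cannot be told apart.

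Some members start within 200 bases of a protein-coding gene on the other strand, and the stretch between the starts is shown for 6 such pairs, because it holds the whole distance that separates the annotated promoters. Among the members, 17 had a start 1 to 200 bases from that of a gene transcribed away from them, and a RefSeq promoter window held both starts with 30 flanking bases for 13. The sequences are from RefSeq on GRCm38.p6, 5′ to 3′. Capitals mark the bases strictly between the 2 starts annotated in GENCODE M21. In each line the antisense transcript starts at the first lower-case base after the capitals and runs to the right, and the protein-coding gene starts at the last lower-case base before them and runs to the left on the other strand.
1810013D15Rik and Cth, chr3:157925047-157925250, + strand: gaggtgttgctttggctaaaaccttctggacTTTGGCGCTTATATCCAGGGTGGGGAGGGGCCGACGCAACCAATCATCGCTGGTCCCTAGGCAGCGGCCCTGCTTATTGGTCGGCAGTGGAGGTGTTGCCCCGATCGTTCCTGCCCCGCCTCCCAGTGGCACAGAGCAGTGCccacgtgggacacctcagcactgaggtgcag
Tmem147os and Tmem147, chr7:30729510-30729609, + strand: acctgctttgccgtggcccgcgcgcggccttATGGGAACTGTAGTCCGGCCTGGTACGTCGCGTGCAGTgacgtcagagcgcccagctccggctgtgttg
Brip1os and Brip1, chr11:86201163-86201400, + strand: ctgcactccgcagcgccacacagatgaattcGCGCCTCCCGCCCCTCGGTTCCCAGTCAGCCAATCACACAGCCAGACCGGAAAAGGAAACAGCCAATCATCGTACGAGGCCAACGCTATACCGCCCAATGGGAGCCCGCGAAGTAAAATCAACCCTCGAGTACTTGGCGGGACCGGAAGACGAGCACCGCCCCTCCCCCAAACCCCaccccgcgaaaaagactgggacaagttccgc
2810001G20Rik and Cox10, chr11:64079438-64079514, + strand: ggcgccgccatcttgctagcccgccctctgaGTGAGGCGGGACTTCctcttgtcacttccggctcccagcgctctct
3110056K07Rik and Arid4a, chr12:71015802-71016020, - strand: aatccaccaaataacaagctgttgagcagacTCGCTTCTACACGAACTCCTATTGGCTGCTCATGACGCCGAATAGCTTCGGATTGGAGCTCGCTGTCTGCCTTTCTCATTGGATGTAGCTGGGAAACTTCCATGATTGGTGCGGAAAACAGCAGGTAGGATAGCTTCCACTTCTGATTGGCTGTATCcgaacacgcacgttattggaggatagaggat
BC051226 and Daxx, chr17:33909287-33909444, - strand: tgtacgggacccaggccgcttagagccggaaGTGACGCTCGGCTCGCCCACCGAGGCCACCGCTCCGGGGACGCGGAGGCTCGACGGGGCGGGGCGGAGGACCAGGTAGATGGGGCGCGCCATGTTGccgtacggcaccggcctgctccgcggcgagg

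GC, CpG and motif matches were counted over each printed line, flanks included, and the number of matches wholly within the capitals is given beside them. 1810013D15Rik starts 143 bases from Cth, which encodes cystathionine gamma-lyase, an enzyme that makes cysteine. Its line has 61.8% GC and 10 CpG and holds CCAAT, the CCAAT box, 2 times over both strands, both within the capitals. The Tmem147os line, with starts 39 bases apart, has 67% GC and 12 CpG and holds TGACGTCA, the cyclic AMP response element, 1 time, across the annotated start of Tmem147os and so 0 times within the capitals. Brip1os starts 177 bases from Brip1, a helicase of DNA repair, and its line holds CCAAT 3 times, the GC box GGGCGG 3 times and the ETS motif CCGGAAG 1 time, all within the capitals. 2810001G20Rik and Cox10, an enzyme of haem A synthesis, have starts only 16 bases apart, and their line holds GGGCGG 1 time and CCGGAAG 1 time, with 0 matches of either within the capitals. The line of 3110056K07Rik and Arid4a, a chromatin protein, has the lowest GC of these 6, at 48.4%, and holds CCAAT 6 times, 5 of them within the capitals. BC051226 and Daxx, a histone H3.3 chaperone, start 97 bases apart, and their line has the highest GC of the 6, at 74.7%, with 23 CpG. It holds GGGCGG 2 times, both within the capitals, and CCGGAAG 1 time, across the annotated start of Daxx and so 0 times within them.

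Promoter windows of 250 bases before to 50 bases after the start were found in the RefSeq table for 65 members. The letters CCGGAAG were in 13 of these 65 windows (20%), against 9.12% of all 27025 windows, and GGGCGG in 31 (47.7%), against 35.9%. CCAAT was in 26 (40.0%), against 37.9%, and the TATA box TATAAA in 4 (6.15%), against 14.2%. TGATGNAA (ATF4 and C/EBP), TGACGTCA and TGACTCA (AP-1) were each in 1 window (1.54%), against 4.06%, 1.88% and 5.17%. Both strands were searched and overlapping matches of different motifs were each counted. The members' windows held a median of 17 CpG and 60.3% GC, against 7 CpG and 52.7% GC over all windows, and a match describes letters, not a bound site. All windows were taken without regard to expression and were not matched to the members by level or position. Whether the contrasts are particular to antisense transcripts was therefore not tested.

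Members were mostly low. Their mean FPKM had a median of 5.35 and ranged from 2.01 to 158, with 85 members from 2 to below 5 FPKM, 73 from 5 to below 20 FPKM and 22 at 20 FPKM or more. The 180 members summed to 1930 FPKM in the Nrn1-/- library, which was 0.244% of all FPKM there, and to 1995 FPKM in the Nrn1+/- library, which was 0.309%. No member was listed at 0 in either library. In 23 members 1 library lay below 2 FPKM, and that library was Nrn1-/- in 15 and Nrn1+/- in 8. The members just inside the threshold were 1810013D15Rik (mean 2.01 FPKM), Gm13563 (2.01), RP23-286M3.5 (2.02) and Zbtb11os1 (2.02). Just outside it were Gm37637 (1.96), Gm16172 (1.97), Gm12531 (1.98) and Gm12264 (1.99).

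**Figure D1:**
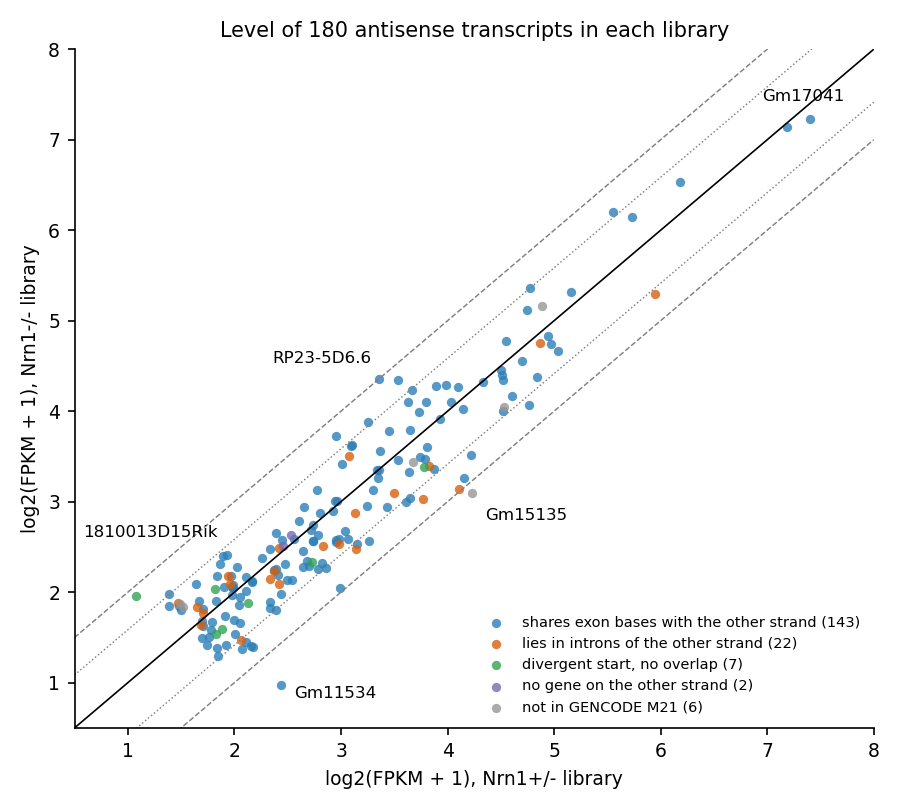
Each of the 180 antisense transcripts by its level in the Nrn1-/- library (vertical) and the Nrn1+/- library (horizontal), both as log2(FPKM + 1), coloured by position relative to genes on the other strand. The solid line marks equal levels, dotted lines 1.5-fold and dashed lines 2-fold, and 109 of the 180 points lie below the solid line.

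By position in GENCODE M21 on GRCm38, in which 174 of the 180 identifiers were found, 143 members shared exon bases with a gene on the other strand, 22 overlapped only introns, 7 started beside a gene running the other way without overlapping it, and 2 overlapped none. Gene bodies lay inside the partner in 89 pairs, head to head in 37, tail to tail in 34, divergent in 7 and spanning the partner in 5. Members had a median of 980 exonic bases, with a range of 260 to 6498. GENCODE M21 still gave 167 of the 174 as antisense, and gave 2, Inafm2 and Toporsos (there Smim27), as protein-coding. RP23-218L17.3 lies on the same strand as Acad9, with all of its 559 exon bases inside Acad9 exons, so position does not make it antisense to Acad9. Some exon bases were shared with a gene on the same strand in 11 placed members, RP23-218L17.3 included. Chromosome 3 held the most members (21), then chromosome 11 (18) and chromosome 5 (16).

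Members were set beside the 1022 antisense rows above 0 and below 2 FPKM. Exon bases were shared with a gene on the other strand by 82.2% of the placed members, against 63.0% of the lower antisense rows. The median share of exon bases inside exons of the other strand was 34.2% for members and 9.56% for the lower antisense rows. At least 90% of exon bases were shared by 36 placed members (20.7%), against 30 of the lower rows (2.98%). The median partner of a member had 26.5 FPKM, against 7.78 FPKM for partners of the lower rows. A start within 1000 bases of a gene running the other way was found for 64 members (36.8%), against 24.8% of the lower rows. The 2 groups were split by the FPKM rule that chose the members, and a partner's fragments may be part of that FPKM. How far these contrasts follow from that choice was not tested.

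The 10 members with the highest mean were led by transcripts whose exons lie inside those of a highly expressed gene. Gm17041 (chromosome 9, 107300380 to 107301838) had 149 FPKM in Nrn1-/- cells and 168 FPKM in Nrn1+/- cells, and all of its exon bases lie in Cish, a cytokine-induced inhibitor of STAT5 signalling that itself had 186 FPKM in Nrn1-/- and 193 FPKM in Nrn1+/- cells. Gm37401 had 140 FPKM in Nrn1-/- cells and 145 FPKM in Nrn1+/- cells, and 93.4% of its exon bases are shared with the other strand, where Rhoa, a cytoskeletal GTPase, had 131 FPKM in Nrn1-/- cells and 132 FPKM in Nrn1+/- cells. Both antisense transcripts and both partners thus differed little between these libraries. Gm17134, wholly inside exons of the splicing repressor Ptbp1, had 91.8 FPKM in Nrn1-/- cells and 71.6 FPKM in Nrn1+/- cells, where Ptbp1 had 414 FPKM in Nrn1-/- and 286 FPKM in Nrn1+/- cells. RP23-49L8.5, wholly inside exons of the translocon gene Sec61a1 (84.1 FPKM in Nrn1-/- and 70.7 FPKM in Nrn1+/- cells), had 70.0 FPKM in Nrn1-/- cells and 52.2 FPKM in Nrn1+/- cells. RP23-131F7.5, in the phosphatidylinositol transfer gene Pitpnb (36.0 FPKM in Nrn1-/- and 28.7 FPKM in Nrn1+/- cells), had 39.0 FPKM in Nrn1-/- and 34.6 FPKM in Nrn1+/- cells. Gm17122, in the actin-binding gene Coro1c (51.9 FPKM in Nrn1-/- and 33.8 FPKM in Nrn1+/- cells), had 33.8 FPKM in Nrn1-/- and 25.8 FPKM in Nrn1+/- cells. In each of these last 4 pairs the antisense transcript and its gene were both higher in the Nrn1-/- library. Gm29084 stands apart among the 10, since it is a single exon inside an intron of the polarity gene Pard3b, which had 0.109 FPKM in Nrn1-/- cells and 0.168 FPKM in Nrn1+/- cells. Gm29084 itself had 38.1 FPKM in Nrn1-/- cells and 60.5 FPKM in Nrn1+/- cells, 1.59-fold lower (95% counting interval 1.5 to 1.68, from an estimated 1887 fragments in Nrn1-/- and 3913 in Nrn1+/- cells, which covers counting error only). The 3 others of the 10, Gm17092, Gm16229 and Gm15648, are given with the largest differences and the transcripts without a position.

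More members were lower than higher in Nrn1-/- cells. The log2 ratio of FPKM + 1, Nrn1-/- over Nrn1+/-, had a median of -0.11 over the 180 members (quartiles -0.39 and 0.18), while the median was 0.03 over all 11124 rows at the same mean level, 0.04 over the 9977 protein-coding rows and -0.11 over the 966 other rows, which are mainly pseudogenes, long noncoding RNAs, small RNAs and T cell receptor segments. The ratio was above 0 in 71 members (39.4%), against 53.6% of all rows, 55.1% of protein-coding rows and 40.8% of other rows. It was below 0 in 109 members (60.6%), against 46.4% of all rows, 44.9% of protein-coding rows and 59.2% of other rows. A difference of at least 1.5-fold lower was found in 21 members (11.7%), against 5.10% of all rows, 3.60% of protein-coding rows and 19.4% of other rows. At least 1.5-fold higher were 8 members (4.44%), against 7.63% of all rows, 7.07% of protein-coding rows and 14.1% of other rows. At least 2-fold lower were 2 members (1.11%), Gm11534 and Gm15135, against 1.02% of all rows, 0.221% of protein-coding rows and 9.32% of other rows. At least 2-fold higher was 1 member (0.556%), RP23-5D6.6, against 1.96% of all rows, 1.20% of protein-coding rows and 10% of other rows. Against all rows, the 2-fold counts were near or below the background, and the share of members below 0 was close to that of the other rows and not to that of protein-coding rows. Most members, 151 (83.9%), lay within 1.5-fold, as did 87.3% of all rows, 89.3% of protein-coding rows and 66.6% of other rows.

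In each level range below, the members' median log2 ratio lay under that of protein-coding rows. From 2 to below 5 FPKM the 85 members had -0.10, against -0.04 for protein-coding rows and -0.16 for other rows. From 5 to below 20 FPKM the 73 members had -0.17, against -0.01 and -0.08. At 20 FPKM or more the 22 members had -0.11, against 0.10 and -0.10. Ratios above 0 were found in 42.4%, 37.0% and 36.4% of members over these ranges. For protein-coding rows the shares were 44.9%, 48.7% and 62.3%, so the shares were closest in the lowest range. How far the mix of levels contributes to the difference was not tested. The authors' scaling between libraries was not given in the sources used here, and other scalings moved all rows by up to -0.28. Scaled to a sum of 1000000, 39 members (21.7%) and 24.6% of all rows were above 0, and scaled to the upper quartile, 55 members (30.6%) and 39.4% of all rows. With either of these, or with centring on protein-coding genes, the count of members at least 2-fold higher was 0. The share of all rows past 2-fold with these scalings is not given here. The 1.5-fold counts moved as well. With a sum of 1000000, 57 members were at least 1.5-fold lower and 2 at least 1.5-fold higher, against 15.4% and 2.41% of protein-coding rows. With the upper quartile these were 31 and 4 members, against 7.02% and 4.19% of protein-coding rows, and with centring on protein-coding genes 21 and 5 members, against 4.49% and 5.87%. As deposited, the members' median lay 0.15 below that of protein-coding rows on the log2 scale. A scaling moves all rows of a library by 1 factor, so that difference hardly changes between scalings by construction.

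**Figure D2:**
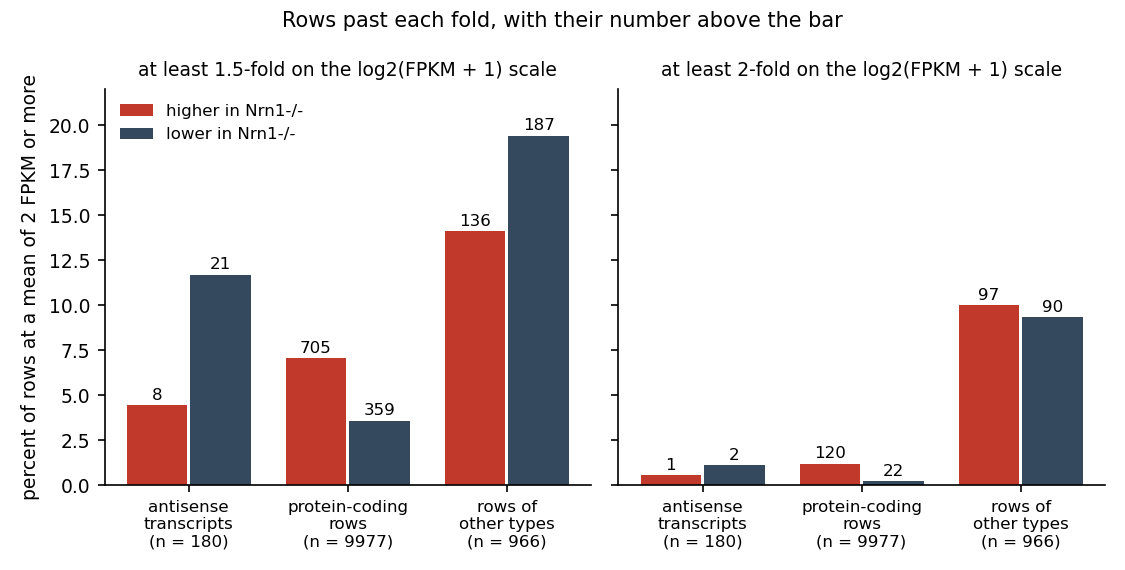
Share of rows with a mean of at least 2 FPKM (percent, vertical) that were higher or lower in Nrn1-/- cells by at least 1.5-fold (left panel) or 2-fold (right panel), for antisense transcripts, protein-coding rows and other rows, with the number of rows above each bar. At 1.5-fold lower the antisense transcripts sit at 11.7%, between protein-coding rows at 3.60% and other rows at 19.4%.

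Of the 10 members with the largest positive ratios, 9 share exon bases with an expressed gene on the other strand that was also higher in the Nrn1-/- library. RP23-5D6.6 (Gm44206 in GENCODE M21; chromosome 6, 115824499 to 115842525, + strand) had 19.5 FPKM in Nrn1-/- cells and 9.22 FPKM in Nrn1+/- cells, 2.11-fold higher (log2 ratio 1.0). It shares 264 exon bases with Mbd4, a DNA repair glycosylase that had 5.51 FPKM in Nrn1-/- cells and 4.27 FPKM in Nrn1+/- cells. So the antisense transcript was above the gene it overlaps in both libraries, and the difference was larger in the antisense transcript. 1810013D15Rik, the partner of Cth in the stretch printed above, had 2.90 FPKM in Nrn1-/- cells and 1.11 FPKM in Nrn1+/- cells, 2.60-fold higher and log2 ratio 0.88. Cth had the opposite sign, at 6.93 FPKM in Nrn1-/- cells and 11.7 FPKM in Nrn1+/- cells (log2 ratio -0.67), and the pair shares no exon bases. 1810013D15Rik was below 2 FPKM in Nrn1+/- cells, so it is a member only through its Nrn1-/- value, and the same holds for Gm12500 below.

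Gm20512 (chromosome 7, 19715016 to 19721731) had 19.3 FPKM in Nrn1-/- cells and 10.6 FPKM in Nrn1+/- cells, 1.82-fold higher (95% counting interval 1.53 to 2.17). It shares 258 exon bases with Tomm40, the channel of the mitochondrial outer membrane import complex, which had 129 FPKM in Nrn1-/- cells and 76.6 FPKM in Nrn1+/- cells. Gm11583, all in the importin gene Kpnb1, had 17.8 FPKM in Nrn1-/- cells and 11.7 FPKM in Nrn1+/- cells, with the log2 ratio 0.57 in the antisense transcript and 0.57 in Kpnb1 (178 FPKM in Nrn1-/- and 120 FPKM in Nrn1+/- cells). Gm16229, with 85.2% of its exon bases shared, had 40.0 FPKM in Nrn1-/- cells and 26.3 FPKM in Nrn1+/- cells, against 37.3 FPKM in Nrn1-/- and 26.2 FPKM in Nrn1+/- cells for Nab2, a corepressor of EGR factors. Gm21844 had 11.4 FPKM in Nrn1-/- cells and 7.60 FPKM in Nrn1+/- cells beside the nuclear RNA-binding gene Rbm14 (42.0 FPKM in Nrn1-/- and 27.6 FPKM in Nrn1+/- cells). Gm21844 also shares exon bases with Gm21992, which had the opposite sign (log2 ratio -0.37). As with Mbd4, Tomm40 and Nab2, the gene on the other strand had a smaller ratio than the antisense transcript in the next 3 pairs. Gm17092, which shares 385 exon bases with the RNA-binding gene Hnrnpd, had 72.3 FPKM in Nrn1-/- cells and 45.9 FPKM in Nrn1+/- cells, 1.58-fold higher (1.46 to 1.71), with Hnrnpd at 250 FPKM in Nrn1-/- and 224 FPKM in Nrn1+/- cells. Gm17201 had a log2 ratio of 0.62 (13.7 FPKM in Nrn1-/- and 8.55 FPKM in Nrn1+/- cells), against 0.21 for Ankrd52, a subunit of protein phosphatase 6. Gm12500 had 0.60 (2.96 FPKM in Nrn1-/- and 1.61 FPKM in Nrn1+/- cells), against 0.48 for the AMP deaminase Ampd2.

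Of the 10 members with the largest negative ratios, 5 lie opposite a gene that was lower in the Nrn1-/- library as well (Sp3, Arsa, Kbtbd11, Bcl2 and Zdhhc4), and 1 has no position in GENCODE M21. Gm11534 (chromosome 11, 95869154 to 95876380, + strand) had 0.966 FPKM in Nrn1-/- cells and 4.41 FPKM in Nrn1+/- cells, 4.57-fold lower (log2 ratio -1.46). It shares 263 exon bases with the glycosyltransferase gene B4galnt2, which was near 0 in both libraries, at 0.314 FPKM in Nrn1-/- cells and 0.177 FPKM in Nrn1+/- cells. Gm26740 (chromosome 10, 22187013 to 22302835, - strand) had 7.78 FPKM in Nrn1-/- cells and 16.2 FPKM in Nrn1+/- cells, 2.08-fold lower, and lies opposite introns of Raet1e, a ligand gene of the NKG2D receptor with at most 0.0753 FPKM. Within its body, on the same strand and sharing no exon with it, the pseudogene Hmgb1-ps8 had 10.46 FPKM in Nrn1-/- cells and 20.68 FPKM in Nrn1+/- cells, and processed pseudogenes share sequence with their parent gene, so its value is uncertain. Gm16124 had 3.14 FPKM in Nrn1-/- cells and 6.95 FPKM in Nrn1+/- cells, 2.21-fold lower (95% counting interval 1.53 to 3.32, from an estimated 38 fragments in Nrn1-/- and 111 in Nrn1+/- cells), while the ubiquitin ligase gene Cul5, with which it shares 110 exon bases, had 14.6 FPKM in both. These 3 antisense transcripts thus differed where the gene opposite them did not or was hardly detected. Gm11534 was below 2 FPKM in Nrn1-/- cells, so it is a member only through its Nrn1+/- value. The same holds for Tmem147os, C230037L18Rik and 0610040B10Rik among these 10. For such members the filter on the mean favours a difference in this direction.

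D630008O14Rik was paired with Bcl2, the antiapoptotic gene, and both were lower. It had 10.4 FPKM in Nrn1-/- cells and 17.7 FPKM in Nrn1+/- cells (log2 ratio -0.71), and Bcl2 had 25.5 FPKM in Nrn1-/- cells and 43.9 FPKM in Nrn1+/- cells (-0.76), with 558 exon bases shared. 0610040B10Rik, which shares 10 exon bases with Zdhhc4, had 1.59 FPKM in Nrn1-/- cells and 3.21 FPKM in Nrn1+/- cells (-0.70). Zdhhc4 had 28.4 FPKM in Nrn1-/- and 32.7 FPKM in Nrn1+/- cells (-0.20). Gm15655, just outside the 10 with a log2 ratio that also rounds to -0.70, lies wholly in exons of the transcription factor gene Maf. Gm15655 had 15.7 FPKM in Nrn1-/- cells and 26.1 FPKM in Nrn1+/- cells. This was a larger difference than in Maf itself, at 36.3 FPKM in Nrn1-/- and 41.3 FPKM in Nrn1+/- cells (-0.18). 5830468F06Rik, opposite an intron of Kbtbd11, had 7.16 FPKM in Nrn1-/- cells and 12.7 FPKM in Nrn1+/- cells, 1.77-fold lower (95% counting interval 1.53 to 2.06), with Kbtbd11 at 57.5 FPKM in Nrn1-/- and 75.7 FPKM in Nrn1+/- cells. C230037L18Rik had 1.65 FPKM in Nrn1-/- cells and 3.46 FPKM in Nrn1+/- cells, with the lysosomal sulfatase gene Arsa at 4.39 FPKM in Nrn1-/- and 5.84 FPKM in Nrn1+/- cells. In each of these pairs the gene on the other strand was lower as well, by a larger amount in the Bcl2 pair and by a smaller one in the others. The remaining 3 of the 10 are Sp3os and Tmem147os, given with the transcripts named for a sense gene, and Gm15135.

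**Figure D3:**
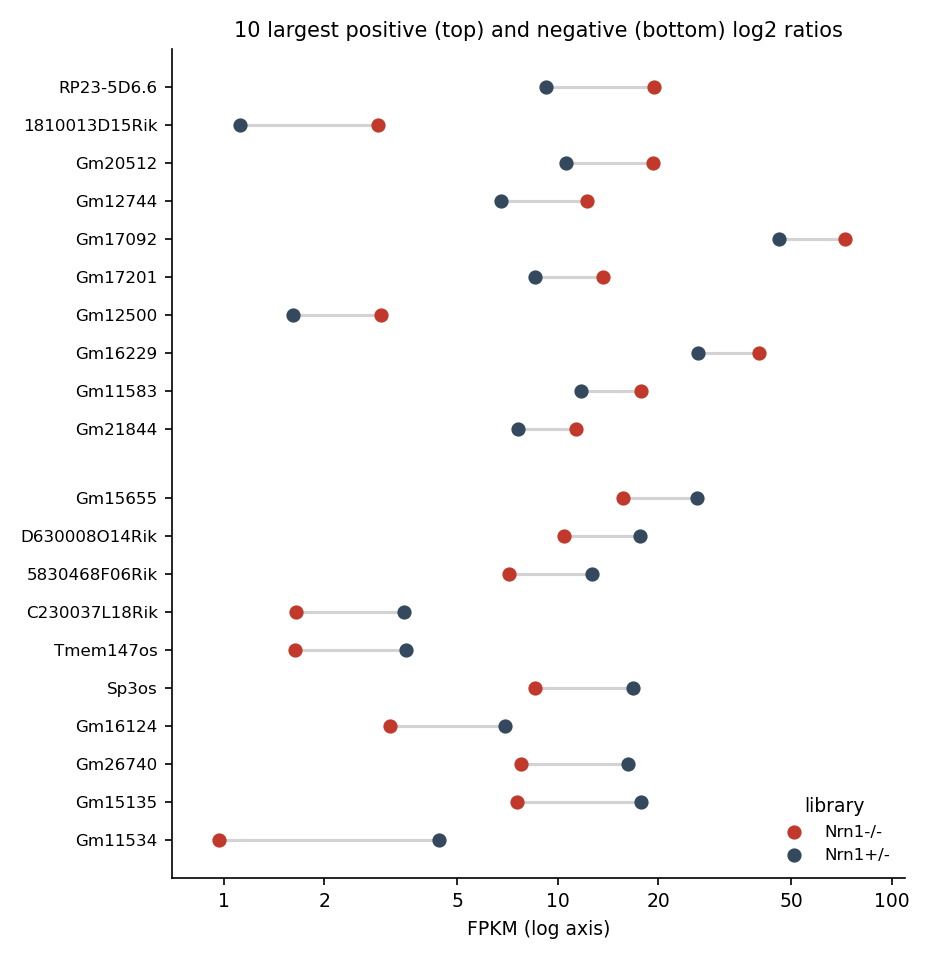
FPKM of the 10 antisense transcripts with the largest positive and the 10 with the largest negative log2 ratios in the Nrn1-/- and the Nrn1+/- library, on a log axis. Ratios were ranked at 2 decimals here, so Gm15655 is drawn in place of 0610040B10Rik, which also rounds to -0.70 and lies slightly lower. RP23-5D6.6 has 19.5 FPKM in Nrn1-/- and 9.22 FPKM in Nrn1+/- cells, and Gm11534 has 0.966 FPKM in Nrn1-/- and 4.41 FPKM in Nrn1+/- cells.

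The symbol named a sense gene in 19 members, and the signs of the pair agreed in 13 of these 19 (68.4%). The antisense transcripts had a median log2 ratio of -0.16 and their sense genes -0.04, and Spearman's coefficient over the 19 pairs was 0.18, a description only since all points come from the same 2 libraries. Only 5 of the 19 antisense transcripts were above their sense gene in mean level.

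The transcription factor genes Sp3, Bach2, Jun and Runx2 were lower in the Nrn1-/- library, and their antisense transcripts were lower in 3 of these 4 pairs. Others among the 19 did not share this direction. The repressor gene Mypop (log2 ratio 0.27), the zinc finger gene Zfp335 (0.06) and the homeodomain gene Hopx (0.03) were higher, and the zinc finger gene Zbtb11 was at -0.04. Sp3os had 8.57 FPKM in Nrn1-/- cells and 16.8 FPKM in Nrn1+/- cells (log2 ratio -0.89), and the zinc finger factor gene Sp3, with which it shares 109 exon bases, had 37.8 FPKM in Nrn1-/- and 46.4 FPKM in Nrn1+/- cells (-0.29). Bach2os, by contrast, had 7.04 FPKM in Nrn1-/- cells and 6.67 FPKM in Nrn1+/- cells (0.07), while Bach2, a repressor that restrains effector differentiation of T cells, had 24.5 FPKM in Nrn1-/- and 34.9 FPKM in Nrn1+/- cells (-0.50). Junos had 8.59 FPKM in Nrn1-/- cells and 9.15 FPKM in Nrn1+/- cells (-0.08), while the AP-1 gene Jun had 60.2 FPKM in Nrn1-/- and 86.1 FPKM in Nrn1+/- cells (-0.51). For Bach2 and Jun, then, the sense gene differed and the antisense transcript hardly did. Runx2os1 had 5.03 FPKM in Nrn1-/- cells and 6.89 FPKM in Nrn1+/- cells (-0.39), beside Runx2 at 11.8 FPKM in Nrn1-/- and 13.1 FPKM in Nrn1+/- cells (-0.15). Hopxos had 4.97 FPKM in Nrn1-/- cells and 4.44 FPKM in Nrn1+/- cells (0.13), with the homeodomain gene Hopx at 52.1 FPKM in Nrn1-/- and 51.1 FPKM in Nrn1+/- cells (0.03).

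Brip1os was higher, as were its neighbours Brip1 and Ints2 on the other strand. It had 18.4 FPKM in Nrn1-/- cells and 13.8 FPKM in Nrn1+/- cells (log2 ratio 0.38). Brip1, which starts 177 bases away, had 6.02 FPKM in Nrn1-/- cells and 3.14 FPKM in Nrn1+/- cells (0.76), and Ints2, an Integrator subunit that shares 512 exon bases with Brip1os, had 23.4 FPKM in Nrn1-/- cells and 12.8 FPKM in Nrn1+/- cells (0.82). Med13, a Mediator subunit that shares 800 exon bases with it, went the other way, at 14.5 FPKM in Nrn1-/- cells and 18.4 FPKM in Nrn1+/- cells (-0.32). Tmem147os and Tmem147, a membrane protein gene of the endoplasmic reticulum whose start lies 39 bases off, had opposite signs. The antisense transcript had 1.63 FPKM in Nrn1-/- cells and 3.52 FPKM in Nrn1+/- cells (-0.78), and Tmem147 had 84.5 FPKM in Nrn1-/- cells and 70.6 FPKM in Nrn1+/- cells (0.25). Mypopos had 4.02 FPKM in Nrn1-/- cells and 6.06 FPKM in Nrn1+/- cells (-0.49) against a log2 ratio of 0.27 for Mypop, a Myb-related repressor gene.

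The antisense log2 ratios of the other 11 named pairs lay between -0.43 and 0.43. Slc36a3os had 10.3 FPKM in Nrn1-/- cells and 7.42 FPKM in Nrn1+/- cells (log2 ratio 0.43), while the transporter gene Slc36a3 was below 0.2 FPKM in both, at 0.192 FPKM in Nrn1-/- and 0.135 FPKM in Nrn1+/- cells. Rab26os had 26.04 FPKM in Nrn1-/- cells and 28.2 FPKM in Nrn1+/- cells, above the vesicle GTPase gene Rab26 at 1.64 FPKM in Nrn1-/- and 1.79 FPKM in Nrn1+/- cells. Rab10os had 20.1 FPKM in Nrn1-/- cells and 21.8 FPKM in Nrn1+/- cells, with the membrane traffic GTPase gene Rab10 at 62.2 FPKM in Nrn1-/- and 60.8 FPKM in Nrn1+/- cells. Slc36a3os and Rab26os were the named antisense transcripts farthest above their sense gene, and Rab10os lay below it. Arhgap27os3 had a log2 ratio of -0.43 (9.54 FPKM in Nrn1-/- and 13.2 FPKM in Nrn1+/- cells), against -0.23 for the GTPase-activating gene Arhgap27. Ccdc142os had -0.39, against -0.22 for Ccdc142, and Phtf1os -0.37, against -0.05 for Phtf1. Ppp1r3fos, named Flicr in GENCODE M21, had 5.41 FPKM in Nrn1-/- cells and 7.22 FPKM in Nrn1+/- cells (-0.36), with the protein phosphatase 1 subunit gene Ppp1r3f, which shares 310 exon bases with it, at 6.41 FPKM in Nrn1-/- and 8.67 FPKM in Nrn1+/- cells (-0.38). Flicr is known as a long noncoding RNA next to Foxp3 that modulates Foxp3 in Treg cells. It shares 853 exon bases with Foxp3 itself on the same strand (23.8% of its exon bases), and Foxp3 had 195 FPKM in Nrn1-/- cells and 257 FPKM in Nrn1+/- cells (-0.40). All 3 genes of this locus were lower in the Nrn1-/- library, and how far fragments of Foxp3 contribute to the value of Ppp1r3fos was not tested. Zbtb11os1 had -0.20, against -0.04 for the zinc finger gene Zbtb11. Toporsos had -0.16, against 0.11 for the ubiquitin and SUMO ligase gene Topors, and Zfp335os -0.12, against 0.06 for the zinc finger gene Zfp335. Map2k3os had 0.23 (3.11 FPKM in Nrn1-/- and 2.52 FPKM in Nrn1+/- cells), against 0.16 for the p38 kinase activator Map2k3. Among these, the signs were opposite for Toporsos, Zfp335os and Rab10os.

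**Figure D4:**
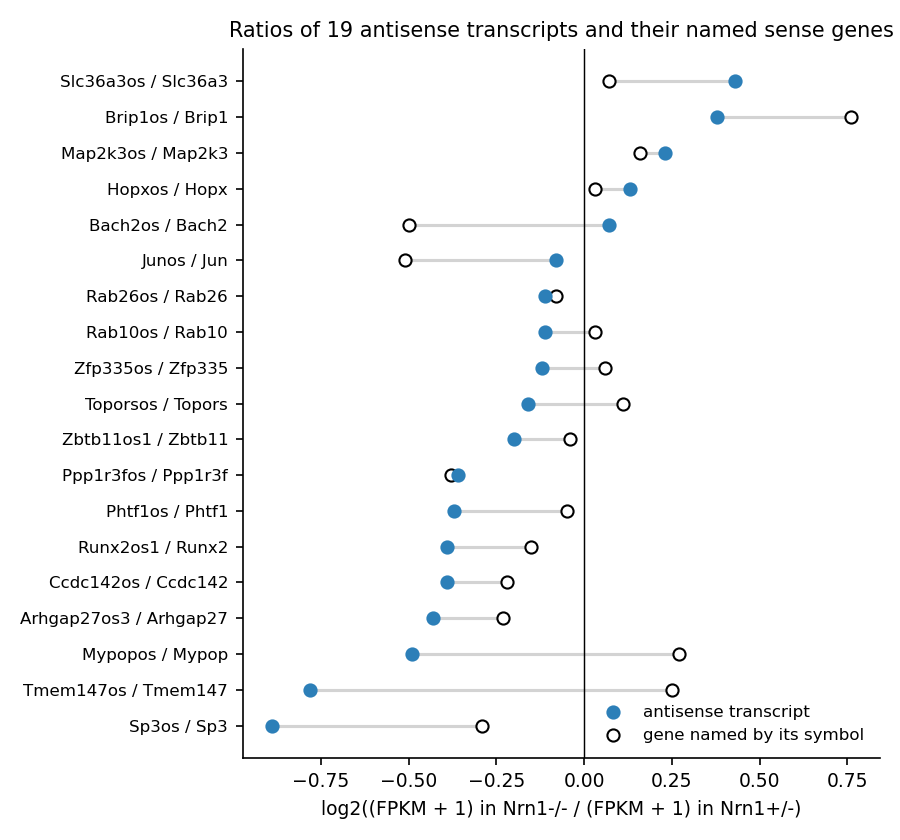
Log2 ratios of Nrn1-/- over Nrn1+/- (FPKM + 1) for the 19 antisense transcripts whose symbol names a sense gene and for that gene, 1 pair per row. The signs agree in 13 pairs, and Sp3os at -0.89 and Tmem147os at -0.78 lie farthest from 0 among the antisense transcripts.

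Antisense transcripts and the genes opposite them had the same sign in most pairs with shared exons. The partner by position, the protein-coding gene on the other strand with the longest gene-body overlap or else a nearby divergent start, was found for 172 members, and the signs agreed in 124 (72.1%), with Spearman's coefficient 0.50. For the 143 with shared exons, signs agreed in 109 (76.2%) with coefficient 0.60, and for the 22 with intron overlap only in 12 (54.5%) with coefficient 0.06. For the 7 divergent pairs with no overlap the signs agreed in 3. Members inside the partner's body had coefficient 0.67 (89 pairs), head-to-head pairs 0.56 (37 pairs) and tail-to-tail pairs 0.02 (34 pairs). These points share both libraries and, where exons overlap, may share fragments, so the correlations are descriptions.

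Among the 158 pairs whose partner had at least 2 FPKM, the share of the member's exon bases inside the partner's exons was split into 4 ranges. With no shared bases signs agreed in 12 of 22 pairs (54.5%, coefficient -0.04). Above 0% and below 25% they agreed in 31 of 42 (73.8%, coefficient 0.51), and from 25% to below 90% in 44 of 61 (72.1%, coefficient 0.62). From 90% to 100% they agreed in 30 of 33 (90.9%, coefficient 0.81). The median absolute difference between the 2 log2 ratios of a pair was 0.24, 0.25, 0.20 and 0.15 over these ranges. Where a member starts within 1000 bases of a gene running the other way and the first bases are not shared, the signs agreed in 12 of 26 pairs (46.2%, coefficient -0.14), and in 23 of 38 (60.5%, coefficient 0.37) where the first bases are shared. Whether the agreement at high overlap comes from shared fragments or from transcripts that differ together cannot be told apart in libraries without strand.

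**Figure D5:**
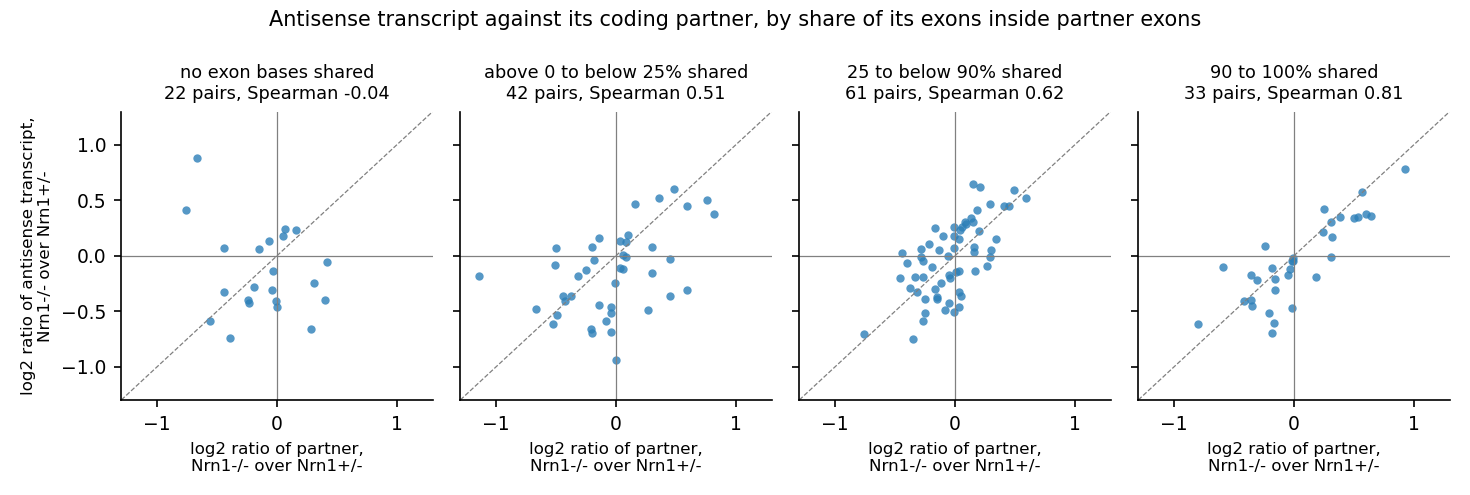
Log2 ratio of the partner (horizontal) against that of the antisense transcript (vertical), Nrn1-/- over Nrn1+/-, for pairs whose partner had at least 2 FPKM, in panels by the share of the antisense exon bases inside the partner's exons. Spearman's coefficient is -0.04 in the 22 pairs with none shared and 0.81 in the 33 pairs with 90% to 100% shared.

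The level of a member wholly inside its partner's exons was not a fixed part of the partner's level. In the 33 members with at least 90% of exon bases in an expressed partner, the member's mean FPKM was between 2.77% and 164% of the partner's, with a median of 43.1%. It was below 10% in 4 members and at or above the partner in 6. At the low end, Gm28364 had 1.89 FPKM in Nrn1-/- cells and 3.01 FPKM in Nrn1+/- cells, inside exons of Aamp at 87.9 FPKM in Nrn1-/- and 89.0 FPKM in Nrn1+/- cells. At the high end, Gm20402 had 27.5 FPKM in Nrn1-/- cells and 29.8 FPKM in Nrn1+/- cells, above Foxo1 at 16.3 FPKM in Nrn1-/- and 18.6 FPKM in Nrn1+/- cells. These examples were chosen after their values were seen.

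With the partner by position as defined above, pairs in which both transcripts passed 1.5-fold numbered 4, and 3 of them had the same sign. Among those of the same sign were D630008O14Rik with Bcl2, and RP24-230P10.6 with the Myc antagonist gene Mxd4. RP24-230P10.6 had 6.96 FPKM in Nrn1-/- cells and 11.2 FPKM in Nrn1+/- cells (log2 ratio -0.62), and Mxd4 had 15.99 FPKM in Nrn1-/- cells and 28.7 FPKM in Nrn1+/- cells (-0.80). The pair of opposite sign was 1810013D15Rik with Cth. The counts depend on how the partner is defined. Gm20512 with Tomm40 is not among these pairs, because the longest gene-body overlap gives Pvrl2 as its partner. With the partner by longest shared exon length, such pairs with shared exons numbered 4, and all 4 had the same sign.

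The other printed divergent pairs also differed in whether both sides moved. 3110056K07Rik had 4.58 FPKM in Nrn1-/- cells and 7.80 FPKM in Nrn1+/- cells (log2 ratio -0.66), and Arid4a had 19.8 FPKM in Nrn1-/- and 27.9 FPKM in Nrn1+/- cells (-0.47). BC051226 had 9.45 FPKM in Nrn1-/- cells and 12.8 FPKM in Nrn1+/- cells (-0.40), and Daxx had 40.0 FPKM in Nrn1-/- and 47.5 FPKM in Nrn1+/- cells (-0.24). 2810001G20Rik had 4.03 FPKM in Nrn1-/- cells and 5.62 FPKM in Nrn1+/- cells (-0.40), but Cox10 had 16.2 FPKM in Nrn1-/- cells and 12.1 FPKM in Nrn1+/- cells (0.40). Of the 6 pairs whose sequences are printed, Arid4a, Daxx and Brip1 had the sign of their antisense neighbour, and Cth, Tmem147 and Cox10 the opposite sign. These 6 were picked by the size of the antisense ratio.

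Of 28 well-studied antisense and long noncoding RNAs that were listed, 19 had a row under the listed symbol, 5 of these were antisense rows, and 1, Airn, was a member. Flicr, also listed, is a member under the symbol Ppp1r3fos, given above. Airn (chromosome 17, 12741311 to 12860136), the imprinted transcript that silences Igf2r on the paternal chromosome, had 4.77 FPKM in Nrn1-/- cells and 6.91 FPKM in Nrn1+/- cells (log2 ratio -0.46). Igf2r had 32.3 FPKM in Nrn1-/- cells and 32.2 FPKM in Nrn1+/- cells (0.00), and the pair shares no exon bases. Gt(ROSA)26Sor, the transcript of the locus used for ubiquitous transgenes, had 15.08 FPKM in Nrn1-/- cells and 21.997 FPKM in Nrn1+/- cells (-0.52), while Thumpd3 on the other strand had 39.8 FPKM in Nrn1-/- and 40.9 FPKM in Nrn1+/- cells. It was chosen after its values were seen. In both cases the antisense transcript differed more than its neighbour.

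Partners in the gene lists were few: 4 members were paired with the 37 Treg and T cell genes, and 0 with the 16 S phase, 15 G2 and M phase and 14 interferon response genes. Gm16008, opposite the glucocorticoid-induced TNF receptor gene Tnfrsf18, had 3.31 FPKM in Nrn1-/- cells and 3.47 FPKM in Nrn1+/- cells, where Tnfrsf18 had 503 FPKM in Nrn1-/- and 608 FPKM in Nrn1+/- cells. Gm20402 and Foxo1, a factor that keeps T cells quiescent, had log2 ratios of -0.11 and -0.18. The other 2, Gm15655 with Maf and Bach2os with Bach2, are given above. All 4 partners were lower in the Nrn1-/- library, as were 46.4% of all rows and 44.9% of protein-coding rows at the same level. The 4 are too few to describe the list.

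Partners with more than 1 member numbered 4. Gm16033 and Gm16034 lie inside the metalloprotease gene Adam19 and overlap each other, and they had log2 ratios of -0.17 and -0.40, against -0.36 for Adam19. A730011C13Rik and Gm15265 had -0.59 and -0.49, while the lipid kinase gene Pi4kb had -0.08. 1810062O18Rik and 2810402E24Rik had -0.51 and -0.25, with the deubiquitinase-family gene Usp54 at -0.01. Gm27241 and Gm27232 had 0.18 and -0.05, with the transcription factor gene Rfx7 at -0.01. Of these 4 cases, the members differed in sign in the Rfx7 case only.

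The 6 members absent from GENCODE M21 have no position there, and the locus given in the file is all that places them. Gm15135 had 7.56 FPKM in Nrn1-/- cells and 17.7 FPKM in Nrn1+/- cells, 2.35-fold lower (log2 ratio -1.13). Its locus in the file is shared with Trim genes, antiviral ubiquitin ligases, which were lower too. Trim12a had 39.2 FPKM in Nrn1-/- cells and 68.2 FPKM in Nrn1+/- cells (-0.78), Trim34a -0.70, Trim5 -0.65 and Trim12c -0.52. These genes are paralogs that are similar in sequence, so fragments may be split between them and their values are uncertain. Gm15648 had 34.8 FPKM in Nrn1-/- cells and 28.6 FPKM in Nrn1+/- cells (0.27) in a locus with the ubiquitin-conjugating enzyme gene Ube2l3 (0.33) and Ydjc (0.73). Gm16586 had -0.49 and Gm17104 -0.23, and Gm15598 and Gm15658 had 0.37 and 0.32.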

How the data were processed

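Poly(A) RNA libraries of sorted Nrn1-/- and Nrn1+/- effector Treg cells (1 each) were grouped by the genotype labels. The authors deposited FPKM per gene. The submitters' processing notes name FastQC, TopHat, Cuffdiff and Cuffnorm, and the builds mm10 and GRCm38, without versions. The annotation and how libraries were scaled were not given in the sources used here. The file headers name no unit, so FPKM was taken from the values and from Cuffnorm. FPKM divides by effective length, which makes short RNAs unstable. Per the labels' protocols the kit was NEBNext Ultra.

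Fold differences were computed as log2((Nrn1-/- + 1)/(Nrn1+/- + 1)), which understates differences of low rows. A row counts as 2-fold or 1.5-fold different on that scale, whereas folds quoted beside FPKM values carry no pseudocount. Positions came from GENCODE M21 by identifier without version (46000 of 46511 rows matched). Sequences came from RefSeq. Low values of transcripts with no shared exon, at least 1000 bases long, were whole multiples of 1 fragment within 0.1 in 99.8% of 1241 rows (Nrn1-/-) and 99.8% of 1258 rows (Nrn1+/-), where chance gives 20%, after a length offset of 210 bases. The step was 1.31 times as large in the Nrn1-/- library. Counting intervals (95%) use these fragments for members of at least 500 bases with a single transcript. They cover counting error only, since no molecular identifiers separate molecules from PCR copies. Calculations used Python 3.11.15, numpy 2.4.6, pandas 2.3.3 and scipy 1.17.1, were checked on simulated data, and involved no test.

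Members and gene lists were chosen with earlier results of these data known. Named are Nrn1, members named for a sense gene, the 10 highest means, the 10 largest ratios in each direction, the 4 rows on each side of the threshold, studied antisense RNAs and partners in 4 gene lists. Some results of these are not reported here. Others were chosen after their values were seen. The alternatives tried were 3 other scalings, 2 pseudocount settings, 4 filters on level, and leaving out short transcripts or members that share exons, with 2 further pair definitions chosen after seeing the data.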

Additional observations from a re-analysis of the deposited data

How the results depend on the processing

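With 1 library per genotype, no replicate could be left out. No paired analysis was possible because each genotype has 1 library. The count of members at least 2-fold higher (1 as reported) was 0 with upper quartile scaling, with a sum of 1000000, with centring on protein-coding genes and without members that share exons, and 2 with a pseudocount of 0.1, with none, at a mean of at least 1 FPKM and with no filter. The count at least 2-fold lower (2 as reported) was 5 with upper quartile scaling, 9 with a sum of 1000000, 6 with a pseudocount of 0.1, 7 with none, 4 at a mean of at least 1 FPKM, 1 at 5 FPKM, 5 with no filter, 1 with at least 2 FPKM in both libraries and 1 without members that share exons. The last of these is Gm15135, which has no position in GENCODE M21. The share of all rows past 2-fold under each of these settings is not given here, so these counts cannot be set against a background. The members' median log2 ratio (-0.111 as reported) was -0.234 with upper quartile scaling, -0.390 with a sum of 1000000 and -0.246 in the 35 members with no shared exons found. Those 35 include the 6 members not in GENCODE M21, whose exon sharing is unknown. The 2 scalings shifted all rows by -0.12 and -0.28, and members shifted with them by construction. Members higher in Nrn1-/- (71 of 180) numbered 39 with a sum of 1000000, 110 of 288 at 1 FPKM, 35 of 95 at 5 FPKM, 474 of 1202 with no filter and 13 of the 35 with no shared exons found. Named pairs of the same sign (13 of 19) numbered 16 with upper quartile scaling, 17 with a sum of 1000000 and 13 with centring on protein-coding genes. They numbered 73 of 148 with no filter and 3 of 3 without shared exons. Overlapping pairs of the same sign (121 of 165) numbered 125 with upper quartile scaling, 132 with a sum of 1000000 and 126 with centring on protein-coding genes. They numbered 68 of 90 at 5 FPKM, 615 of 1053 with no filter and 11 of 21 without shared exons. A scaling moves both ratios of a pair in the same direction, so the count of equal signs depends on it. The members tested change in number under these filters. For the other settings the cause was not tested. No median changed sign under the alternatives run, and the smallest in size was -0.034, over the 1202 antisense rows above 0 with no filter. Short members near 2 FPKM rest on few fragments (32 in Nrn1-/- and 57 in Nrn1+/- cells for 1700021J08Rik), which limits their ratios.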

Other observations

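The listed RNAs that are not antisense rows numbered 14. Among the 13 of these that reach a mean level of 2 FPKM, 10 were lower and 3 higher in the Nrn1-/- library. At the same level 46.4% of all rows and 59.2% of rows of other types were lower, and the 13 come from a list made by hand. Neat1, the scaffold of nuclear paraspeckles, had 79.0 FPKM in Nrn1-/- cells and 153 FPKM in Nrn1+/- cells (log2 ratio -0.95). Malat1, an abundant RNA of nuclear speckles, had 141 FPKM in Nrn1-/- cells and 227 FPKM in Nrn1+/- cells (-0.69), and Mir142hg, the host of a miRNA of blood cells, had 63.5 FPKM in Nrn1-/- cells and 107 FPKM in Nrn1+/- cells (-0.74). Pvt1, a neighbour of Myc, had 14.6 FPKM in Nrn1-/- cells and 15.7 FPKM in Nrn1+/- cells (-0.09). The 3 that were higher were Foxd2os, at 3.09 FPKM in Nrn1-/- cells and 2.46 FPKM in Nrn1+/- cells (0.24), Ftx, a transcript of the X inactivation centre, at 4.26 FPKM in Nrn1-/- cells and 3.81 FPKM in Nrn1+/- cells (0.13), and the protein-coding row Wrap53, at 15.05 FPKM in Nrn1-/- cells and 12.6 FPKM in Nrn1+/- cells (0.24). Hotairm1, an antisense row below the level threshold, had 0.296 FPKM in Nrn1-/- cells and 1.15 FPKM in Nrn1+/- cells.

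Low values of antisense rows stepped in whole fragments. In antisense rows with a single transcript that share exons with another gene, 100% of 96 low values in the Nrn1-/- library and 100% of 85 in the Nrn1+/- library were whole multiples of 1 fragment within 0.1. In protein-coding rows that share exons, the share was 85.7% of 91 in the Nrn1-/- library and 90.8% of 98 in the Nrn1+/- library. How the counting tool assigned fragments of shared exons was not tested.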
